A study of Mus musculus with 4 samples.

Results

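Transcripts of 10 genes that make or break down prostaglandins were followed in the livers of female mice lacking Utx in the liver and of wild-type mice, all given acetaminophen. The genes were taken by name from a table of 54149 genes. They are the cyclooxygenases Ptgs1 and Ptgs2, the prostaglandin D synthases Ptgds and Hpgds, the prostaglandin E synthases Ptges, Ptges2 and Ptges3, and the breakdown enzymes Hpgd, Ptgr1 and Ptgr2. The set was chosen by the expression values of Ptgds in this same comparison, where it had one of the largest differences. The differences of the 10 genes between knockout and wild type are therefore given as a description, without a test.

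Utx, listed as Kdm6a, encodes a histone H3 lysine 27 demethylase. The knockout (KO) group held 2 libraries of liver RNA from adult female liver-specific Utx knockout mice, and the wild-type (WT) group held 2 libraries from age- and sex-matched controls. Both groups were of the C57BL/6 x 129S4/SvJae strain background, and each library was a pool of RNA from 2 mice. All mice were fasted for 16 h and then injected intraperitoneally with 300 mg/kg acetaminophen (APAP), a painkiller that damages the liver in overdose. Every library comes from dosed mice, so the response to dosing was not measured. The sources used here do not give the Cre driver, the allele carried by the controls or the time from dosing to collection. Because a pool averages the mice in it, an animal that stands apart cannot be told from a shift of the whole pool.

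Prostaglandins are lipid signals made from arachidonic acid, which phospholipases release from membranes. Cyclooxygenases turn it into the unstable intermediate prostaglandin H2, and terminal synthases convert that into prostaglandin D2, E2 or other products. Inactivation starts with oxidation by the dehydrogenase encoded by Hpgd and goes on with reduction by the enzymes encoded by Ptgr1 and Ptgr2. In liver, prostaglandins are known as products of Kupffer cells and other non-parenchymal cells that act on hepatocytes.

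Expression is given as FPKM, fragments per kilobase of gene length scaled to a total per library, as deposited by the authors. That total was from 0.943 (WT pool 2) to 1.05 (KO pool 2) times the reads listed for the library. How it was set is not stated in the sources used here. The libraries held between 16330451 and 17804730 reads, recovered from FPKM and gene length. Alb, the albumin gene of hepatocytes, took between 5.40% and 6.93% of them. Kdm6a was at 2.20 and 2.12 FPKM in the KO pools, against 3.40 and 3.85 FPKM in the WT pools (log2 difference -0.63, SE 0.13, limma adjusted p = 0.0715). It was lower in both KO pools but short of the threshold of 0.05, which it passed with limma voom on recovered reads (adjusted p = 0.0327, range over the alternatives 0.0327 to 0.213). Such p-values measure the spread between pools. Reads over a deleted exon are not separated from the rest of a gene in these values. In bulk liver, fewer cells of a type and less RNA per cell cannot be told apart.

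The sequence in front of the start of each gene was taken from the RefSeq promoter table (GRCm38.p6), which matched all 10 genes, and 250 bases before the start were searched on both strands for 6 short motifs. Of the 10 windows, 3 held any of them, and those 3 are printed 5′ to 3′ because they carry the matches. Capitals mark the motif found.
Ptgds, chr2:25469750-25469999, minus strand: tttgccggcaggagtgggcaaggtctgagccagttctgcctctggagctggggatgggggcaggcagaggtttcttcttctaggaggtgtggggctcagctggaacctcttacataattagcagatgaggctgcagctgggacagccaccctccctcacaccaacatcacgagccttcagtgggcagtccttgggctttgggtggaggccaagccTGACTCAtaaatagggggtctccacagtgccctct
Ptgr1, chr4:58987079-58987328, minus strand: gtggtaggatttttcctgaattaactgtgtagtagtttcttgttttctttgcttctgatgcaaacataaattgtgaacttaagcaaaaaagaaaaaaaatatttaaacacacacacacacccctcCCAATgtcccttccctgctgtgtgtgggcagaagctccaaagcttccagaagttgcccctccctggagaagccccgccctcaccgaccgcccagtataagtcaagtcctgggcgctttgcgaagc
Ptges2, chr2:32395640-32395889, plus strand: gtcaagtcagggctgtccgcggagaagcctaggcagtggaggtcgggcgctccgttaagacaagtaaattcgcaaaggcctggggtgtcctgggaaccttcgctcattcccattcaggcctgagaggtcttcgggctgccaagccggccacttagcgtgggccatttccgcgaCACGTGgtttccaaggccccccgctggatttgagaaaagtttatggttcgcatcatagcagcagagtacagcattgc
The window of Ptgds held TGACTCA, the site of AP-1 (dimers of Jun and Fos proteins), from 35 to 29 bases before the start. The letters TGACTCA occurred in 4.46% of the 32851 promoters in the table and in 1 of the 10 windows. The window of Ptges2 held the E-box CACGTG (6.02% of promoters), and that of Ptgr1 held CCAAT (33.8%). None of the 10 windows held the cAMP response element TGACGTCA (1.55% of promoters), the core TGACNNNGC of the antioxidant response element (10.2%) or TATAAA (12.4%). Ptgds had 2 CpG dinucleotides in its window, Ptgr1 had 5 and Ptges2 had 15, against a median of 6 over all promoters. A match is a run of letters, and binding was not measured. GENCODE M21 lists 3 protein-coding transcripts of Ptgds that begin at 25469749, 25469842 and 25470046 on this strand, so the window lies wholly inside the longest of them and overlaps part of the middle one.

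The difference that led to the choice was in prostaglandin D synthesis. Ptgds (ENSMUSG00000015090, GRCm38 chromosome 2, 25466709 to 25470046, minus strand) encodes the lipocalin-type prostaglandin D synthase, a secreted protein that also carries small lipids. It was at 33.7 and 11.4 FPKM in KO pools 1 and 2, against 0.861 and 0.964 FPKM in WT pools 1 and 2. Both KO pools lay far above both WT pools, and the KO pools also differed from each other. The reads behind these values were 991 and 322 in the KO pools and 24 and 25 in the WT pools. The mean was 22.6 ± 15.8 FPKM in KO and 0.913 ± 0.0731 FPKM in WT (SD, n = 2 pools each), a ratio of 24.7. On the log2(FPKM + 0.5) scale the difference was 3.84 (SE 0.51), the fifth highest of 11900 tested genes. It was 3.07 without KO pool 1 and 4.60 without KO pool 2. No other listed gene overlaps Ptgds.

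The size of the Ptgds value thus differed between the KO pools, with KO pool 1 at 2.96 times KO pool 2. A difference at least as large between the KO pools was seen for 128 of the 11900 tested genes. The WT pools differed by a ratio of 0.893. Which KO pool was higher was not shared by the set: 5 of the 10 genes were higher in KO pool 1 and 5 in KO pool 2.

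Hpgds, the hematopoietic prostaglandin D synthase of mast cells and other blood-derived cells, is a glutathione transferase relative that makes the same product. It was at 0.576 and 0.327 FPKM in the KO pools, against 0.221 and 0.396 FPKM in the WT pools, from 66 and 36 reads in KO and 24 and 40 reads in WT. The groups overlapped. Of the FPKM of both D synthases together, Ptgds made up 98.3% and 97.2% in the KO pools and 79.6% and 70.9% in the WT pools. The summed D synthase level was 34.3 and 11.7 FPKM in the KO pools, against 1.08 and 1.36 FPKM in the WT pools.

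The cyclooxygenases, which supply the substrate of both D synthases, were not higher in KO. Ptgs1, the constitutive form, was at 2.76 and 3.92 FPKM in the KO pools, against 4.22 and 3.52 FPKM in the WT pools. The groups overlapped, and the log2 difference of -0.20 (SE 0.20) turned to 0.02 without KO pool 1. The 8 Kupffer cell and macrophage markers, all detected, summed to 135 and 230 FPKM in the KO pools and to 227 and 161 FPKM in the WT pools. Like Ptgs1, they were lowest in KO pool 1 and next lowest in WT pool 2, and their part in its level was not tested.

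Ptgs2, the inducible cyclooxygenase, was barely detected. It was at 0.0367 and 0.0255 FPKM in the KO pools, against 0.0646 and 0.167 FPKM in the WT pools. These values rest on 3 and 2 reads in KO and on 5 and 12 reads in WT, that is 5 reads (exact 95% Poisson interval 1.62 to 11.7) and 17 reads (9.90 to 27.2) in all. Such intervals cover counting error only. The WT values were the higher ones, at a depth where a few reads decide the level.

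**Figure D1:**
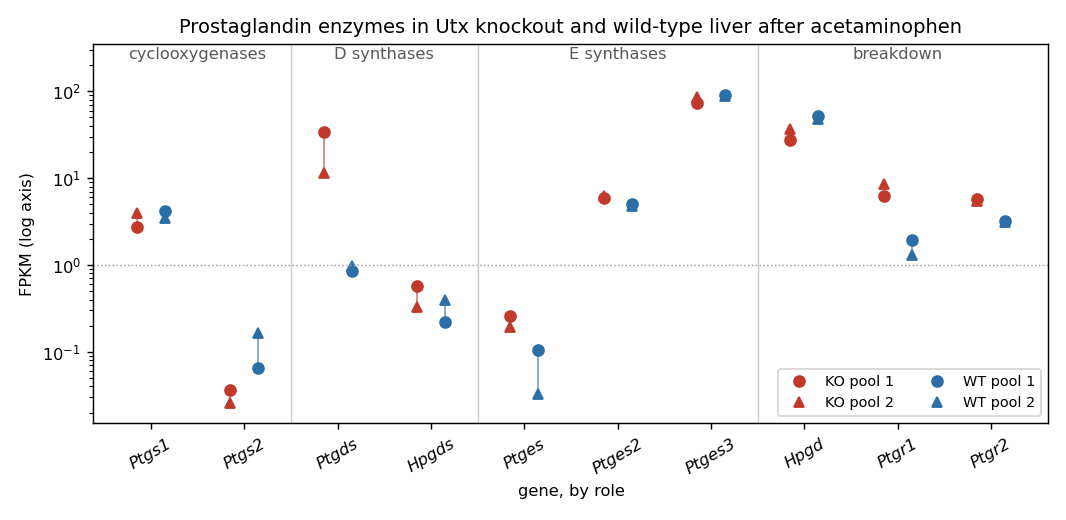
FPKM on a log axis of the 10 prostaglandin genes, grouped by role, with KO pools in red left of WT pools in blue, circles for pool 1, triangles for pool 2 and a line joining the pools of a group. The dotted line marks 1 FPKM. Ptgds stands at 33.7 and 11.4 FPKM in KO against 0.861 and 0.964 FPKM in WT, while Ptgs1 and Hpgds overlap between the groups.

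The prostaglandin E synthases differed little in level between the groups where they were well detected. Ptges3, also known as the Hsp90 cochaperone p23, was at 73.2 and 86.9 FPKM in the KO pools, against 89.9 and 87.4 FPKM in the WT pools. It was the most abundant of the 10 genes in all 4 libraries. The KO values lay below the WT values, though KO pool 2 and WT pool 2 nearly met. Its processed pseudogene Ptges3-ps was listed at 81.7 and 102 FPKM in KO and at 113 and 103 FPKM in WT. Reads of Ptges3 and Ptges3-ps may be shared, so the level of Ptges3 is uncertain.

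Ptges2, the membrane-associated synthase type 2, was at 5.87 and 6.20 FPKM in the KO pools, against 5.06 and 4.83 FPKM in the WT pools (log2 difference 0.26, SE 0.11). The groups did not overlap, with a ratio of means of 1.22. Ptges, the inducible microsomal synthase, was at 0.257 and 0.193 FPKM in the KO pools, against 0.105 and 0.0324 FPKM in the WT pools. Its 31 reads in KO (exact 95% Poisson interval 21.1 to 44.0) and 9 reads in WT (4.12 to 17.1) place it, though higher in both KO pools, like Ptgs2, at the low end of the set. The summed level of the E synthases was 79.4 and 93.3 FPKM in the KO pools and 95.1 and 92.3 FPKM in the WT pools.

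The breakdown enzymes differed in opposite directions along the route. Hpgd, the 15-hydroxyprostaglandin dehydrogenase of the first step (chromosome 8, 56294585 to 56321043, plus strand), was at 27.6 and 36.4 FPKM in the KO pools, against 51.3 and 47.6 FPKM in the WT pools. Both KO pools were below both WT pools, with a ratio of means of 0.647 and a log2 difference of -0.63 (SE 0.17). Ptgr1, which reduces the oxidised product and also inactivates leukotriene B4 (chromosome 4, 58965439 to 58987119, minus strand), was at 6.23 and 8.66 FPKM in the KO pools, against 1.96 and 1.30 FPKM in the WT pools. Both KO pools were more than 3 times as high as either WT pool. The means were 7.45 ± 1.72 FPKM in KO and 1.63 ± 0.464 FPKM in WT (SD, n = 2 pools each), and the log2 difference was 1.90 (SE 0.24). Unlike Ptgds, Ptgr1 was higher in KO pool 2 than in KO pool 1.

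Ptgr2, the other reductase (chromosome 12, 84285232 to 84315832, plus strand), was at 5.80 and 5.44 FPKM in the KO pools, against 3.19 and 3.09 FPKM in the WT pools. The pools of each group lay close together, and the log2 difference was 0.75 (SE 0.11). The level of Hpgd was 4.42 and 4.20 times that of Ptgr1 in the KO pools, against 26.2 and 36.5 times in the WT pools. Together, Ptgr1 and Ptgr2 summed to 12.03 and 14.1 FPKM in KO and to 5.15 and 4.39 FPKM in WT, while all 3 breakdown genes summed to 39.6 and 50.5 FPKM in KO and to 56.5 and 51.97 FPKM in WT. Hpgd made up most of that sum in every library.

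Counted over the set, 5 genes were higher in both KO pools than in both WT pools, 3 were lower and 2 overlapped. Groups that do not overlap were common: they were seen for 45.3% of the 26643 genes detected in any library, and for 61.5% of the 11900 genes that averaged 1 FPKM or more. That mean was the condition for the limma test across genes, and 7 of the 10 genes met it, with a median log2 difference of 0.26 against 0.01 over all tested genes. Ptgds met it only through its KO values, so it had to differ to be tested, and Ptgs2, Ptges and Hpgds did not meet it. Of the 7, 3 were past an adjusted p of 0.05 in the fit across all genes, namely Ptgds, Ptgr1 and Ptgr2, all higher in KO, where 4.74% of all tested genes were past it in either direction and 1.60% as higher. Since values of this comparison chose the set, nothing is read from that count or from the median. The count was 2 with limma voom on reads, which did not call Ptgds, 1 without the trend, which called Ptgr1, and 0 of 10 with no filter on low values. It was 0, 0, 0 and 1 without KO pool 1, WT pool 1, WT pool 2 and KO pool 2.

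In order of level, the KO pools ran from Ptges3 over Hpgd, Ptgds, Ptgr1, Ptges2, Ptgr2, Ptgs1, Hpgds and Ptges to Ptgs2. The ranges of Hpgd and Ptgds overlapped there, and no other neighbours did. In the WT pools the order was Ptges3, Hpgd, Ptges2, Ptgs1, Ptgr2, Ptgr1, Ptgds, Hpgds, Ptgs2 and Ptges, and the overlap was between Ptgs2 and Ptges. Ptgds was thus at rank 3 in KO and at rank 7 in WT, and Ptgr1 at rank 4 in KO and at rank 6 in WT.

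Of the 10 genes, 4 lie on chromosome 2, namely Ptgds, Ptges, Ptges2 and Ptgs1, and the other 6 lie on a chromosome each. Around the start of Ptgds, 14 genes that average 0.1 FPKM or more begin within 100 kb, and 9 of them were tested. Abca2, which encodes a lipid transporter and begins 41.3 kb downstream, rose to 10.4 and 11.1 FPKM in the KO pools, against 6.22 and 5.04 FPKM in the WT pools (log2 difference 0.88, SE 0.14, limma adjusted p = 0.0475). It was the only one of the 9 past the threshold, and 2 of the 9 had an unadjusted p under 0.05. Its call ended under 8 of 13 alternatives, leaving out any of the 4 pools among them (adjusted p from 0.0223 to 0.140). All 9 log2 differences were above 0, from 0.03 for Traf2 to 0.88 for Clic3, with a median of 0.35, though that of Traf2 turned negative without KO pool 1 or WT pool 2, and that of C8g without KO pool 1 or WT pool 1. Over all tested genes, 51.4% of log2 differences were above 0. Clic3 met the mean of 1 FPKM only through its KO values, so it had to be higher in KO to be tested.

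The neighbours nearer to Ptgds than Abca2 ranged from low levels to 141 FPKM, for C8g in KO pool 1. Clic3, a chloride channel family member 13.2 kb downstream, was at 1.16 and 1.79 FPKM in KO and at 0.701 and 0.440 FPKM in WT (adjusted p = 0.141 by limma). Paxx, a DNA repair gene 8.95 kb downstream, was at 4.81 and 5.76 FPKM in KO and at 2.78 and 4.16 FPKM in WT (limma adjusted p = 0.185). Lcn12, another lipocalin gene 23.9 kb upstream, was below the test limit at 0.355 and 0.886 FPKM in KO and 0.0749 and 0.322 FPKM in WT. An unnamed transcript model 8.05 kb upstream and the genes Npdc1, Fbxw5, C8g, Traf2 and Edf1 did not pass. Entpd2 and Fut7 and the pseudogenes Gm13433 and Gm13432 were not tested. No tested neighbour had a log2 difference above 0.88, against 3.84 for Ptgds.

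**Figure D2:**
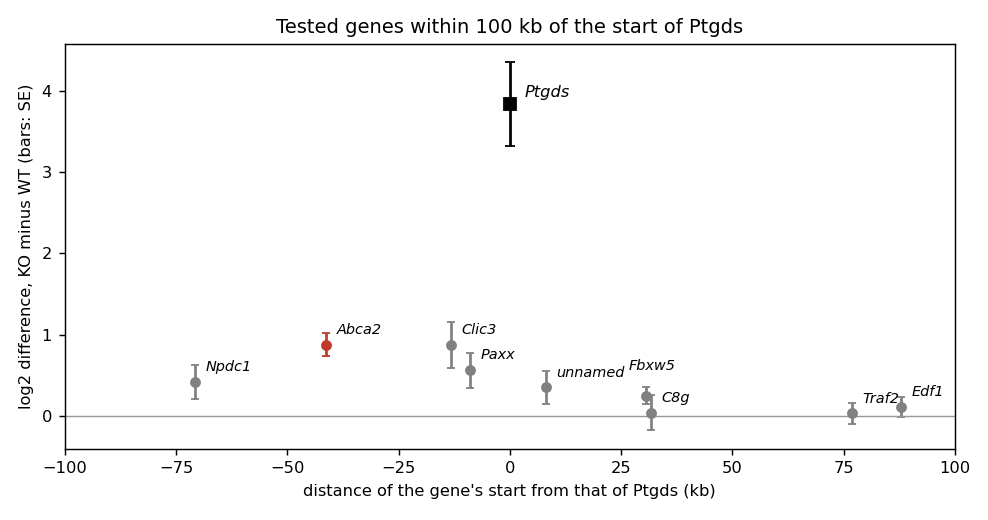
Log2 difference, KO minus WT, with its SE for Ptgds (black square) and the 9 tested genes that begin within 100 kb of it, against the distance of their start from that of Ptgds in kb (negative is downstream, Ptgds being on the minus strand). Abca2 in red had an adjusted p under 0.05 at 0.88, and Ptgds stands at 3.84.

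The genes whose profile over the 4 libraries lay nearest to that of Ptgds were sought among tested protein-coding genes, by Euclidean distance between centred log2(FPKM + 0.5) values. The nearest was Cyp7a1, the enzyme that starts and limits bile acid synthesis from cholesterol, at a distance of 0.83. It was at 35.8 and 17.5 FPKM in the KO pools, against 2.22 and 2.77 FPKM in the WT pools, and like Ptgds it was higher in KO pool 1. Mup11, a major urinary protein and so a lipocalin like Ptgds, followed at 1.32, with 15.3 and 4.52 FPKM in KO and 1.31 and 0.565 FPKM in WT. Mup genes are near-identical copies, so its level is uncertain. Cyp2a5, a cytochrome P450 of drug metabolism, came next at 1.55, with 993 and 817 FPKM in KO and 177 and 108 FPKM in WT, and it shares sequence with Cyp2a4. Cyp7b1, an oxysterol hydroxylase of the alternative bile acid route, and Akr1c14, a hydroxysteroid dehydrogenase, lay at 1.72 and 1.73. Cyp7b1 was at 23.7 and 18.9 FPKM in KO and at 3.69 and 3.85 FPKM in WT. With 4 libraries, the likeness is mostly that of the group difference itself. The 3 genes nearest to Ptgs2, namely Smc6, Mob4 and Hnrnpk, lay at most 0.0277 from it, where the whole Ptgs2 profile has a length of 0.27 on this scale.

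**Figure D3:**
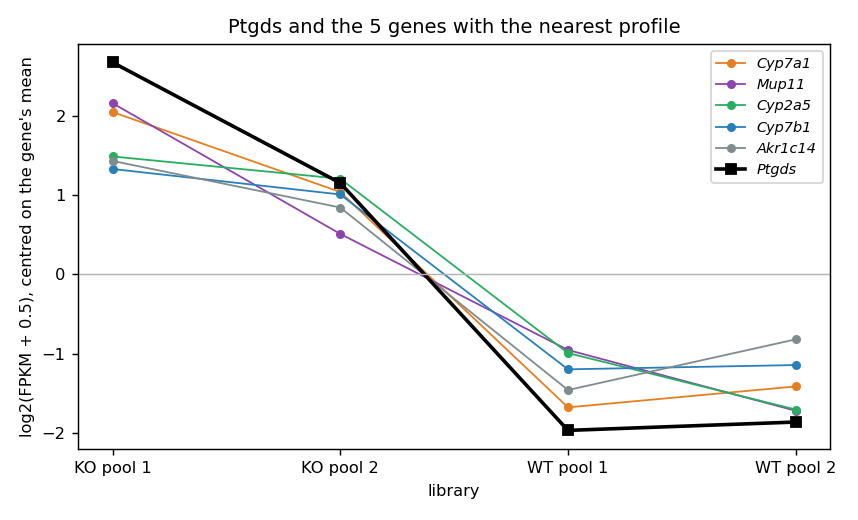
Log2(FPKM + 0.5) centred on each gene's mean over the 4 libraries for Ptgds (black) and the 5 genes with the nearest profile, KO pools left of WT pools. All 6 genes are above their mean in both KO pools and highest in KO pool 1.

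Other genes of eicosanoid metabolism were tested by limma in the same fit across genes. Their values did not choose the set, but their lists too were drawn up with earlier results of these data known. Of 77 genes in 6 lists by role, 76 were in the table and 32 reached the mean of 1 FPKM. Of these, 3 rose and 1 fell in KO at an adjusted p under 0.05, where 1.60% of all tested genes were higher and 3.14% lower. The median log2 difference of the 32 was 0.25, against 0.01 over all tested genes. The 4 genes were Cbr3, Zadh2, Cyp2c29 and Pla2g6. Of 13 alternatives, 4 ended the call of Cbr3, 6 that of Pla2g6, and 7 those of Zadh2 and of Cyp2c29. The count was 7 with limma voom on recovered reads, and it was 0 without KO pool 1, WT pool 1 or WT pool 2, where 10, 10 and 17 genes had an unadjusted p under 0.05.

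Release of arachidonate was represented by 6 tested genes of 20, of which 1 fell. Pla2g6, the calcium-independent phospholipase A2, fell to 4.77 and 5.44 FPKM in the KO pools, against 11.5 and 10.7 FPKM in the WT pools (log2 difference -1.05, SE 0.12, limma adjusted p = 0.0315). The groups lay well apart. Mgll, the monoacylglycerol lipase, averaged 49.3 ± 1.01 FPKM in KO and 27.7 ± 8.96 FPKM in WT (limma adjusted p = 0.111). Pla2g12b, a secreted phospholipase relative of hepatocytes, averaged 35.2 ± 2.66 FPKM in KO and 40.3 ± 0.745 FPKM in WT (limma adjusted p = 0.327). Neither Mgll nor Pla2g12b passed.

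Among the other synthases and reductases, 2 of 7 tested genes rose and 5 did not pass. Cbr3, a carbonyl reductase, rose to 39.4 and 47.3 FPKM in the KO pools, against 9.30 and 7.07 FPKM in the WT pools (log2 difference 2.34, SE 0.18, limma adjusted p = 0.0258). Zadh2, a further 15-oxoprostaglandin reductase related to Ptgr1 and Ptgr2, rose to 33.1 and 27.4 FPKM in the KO pools, against 16.3 and 14.9 FPKM in the WT pools (log2 difference 0.93, SE 0.14, limma adjusted p = 0.0431). Like Ptgr1 and Ptgr2, Zadh2 was higher in both KO pools than in both WT pools. Of all tested genes, 61.5% did not overlap between the groups, in either direction. Ptgr1 and Ptgr2 belong to the chosen set and Zadh2 is named because it passed, so nothing is read from their shared direction. Cbr1, which can reduce prostaglandin E2 to prostaglandin F2α, averaged 166 ± 2.71 FPKM in KO and 111 ± 35.8 FPKM in WT (limma adjusted p = 0.199). Akr1c18, a hydroxysteroid dehydrogenase of the aldo-keto reductase family that was singled out after its values were seen, was at 0.790 and 1.88 FPKM in KO and at 8.82 and 6.06 FPKM in WT. Its limma adjusted p was 0.0501 (0.0315 to 0.141 over the alternatives).

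The receptors were near or below the limit of the test. Tbxa2r, the thromboxane receptor, was the tested one of 9, with 0.819 and 1.91 FPKM in KO and 1.14 and 0.795 FPKM in WT (limma adjusted p = 0.642). The other 8 were under a mean of 1 FPKM. Ptger2, a receptor of prostaglandin E2, averaged 0.275 ± 0.0392 FPKM in KO and 0.293 ± 0.0684 FPKM in WT. Ptgdr, a receptor of prostaglandin D2, was listed at 0 in all 4 libraries. Ptgdr2, the other one, was listed at 0.0212 and 0 FPKM in KO and at 0 and 0.0241 FPKM in WT. Of the transporters, 3 of 4 were tested and 0 passed in limma, 2 had an unadjusted p under 0.05, and 1 passed in voom. Slco2a1, the prostaglandin uptake carrier, averaged 7.71 ± 1.63 FPKM in KO and 13.7 ± 5.67 FPKM in WT (limma adjusted p = 0.225). Slco2b1, an organic anion carrier, averaged 18.9 ± 3.29 FPKM in KO and 12.4 ± 1.41 FPKM in WT (limma adjusted p = 0.119).

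The parallel routes from arachidonate were read in the same way. In the epoxygenase and omega-hydroxylase list 1 of 11 tested genes rose. Cyp2c29, an arachidonate epoxygenase, averaged 119 ± 8.13 FPKM in KO and 65.9 ± 5.64 FPKM in WT (log2 difference 0.84, SE 0.13, limma adjusted p = 0.0451). Cyp4a14 and Cyp4a10, fatty acid hydroxylases, had the highest levels of that list and averaged 1571 ± 71.3 and 1041 ± 28.3 FPKM in KO, against 1294 ± 517 and 1191 ± 199 FPKM in WT. Neither Cyp4a gene passed (limma adjusted p = 0.538 and 0.575). In the lipoxygenase and leukotriene list 0 of 4 tested genes passed in limma, 2 had an unadjusted p under 0.05 and 1 passed in voom. The median log2 difference of those 4 genes was -0.99. Lta4h, the leukotriene A4 hydrolase, was at 4.42 and 4.42 FPKM in KO and at 3.56 and 3.56 FPKM in WT (limma adjusted p = 0.194, singled out after its values were seen), and the other 3 were lower in both KO pools. Mgst3, a microsomal glutathione transferase, averaged 4.21 ± 1.11 FPKM in KO and 9.32 ± 0.549 FPKM in WT (limma adjusted p = 0.0545). Aloxe3, an epidermal-type lipoxygenase, averaged 2.63 ± 1.81 FPKM in KO and 6.88 ± 2.85 FPKM in WT (limma adjusted p = 0.187).

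**Figure D4:**
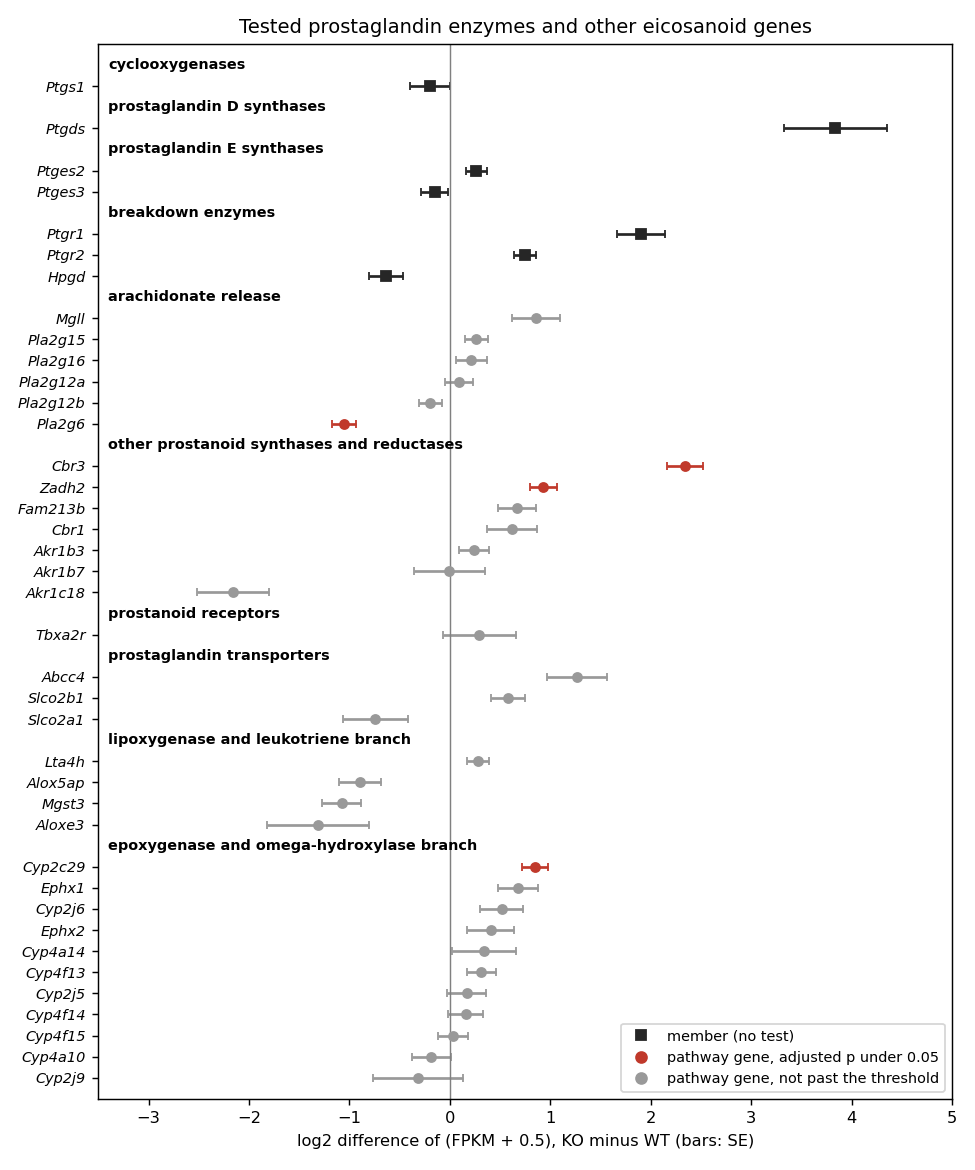
Log2 difference of FPKM + 0.5, KO minus WT, with its SE for the 7 tested prostaglandin genes (black squares, no test) and 32 other tested eicosanoid genes by role. Red circles mark Cbr3, Zadh2, Cyp2c29 and Pla2g6, with an adjusted p under 0.05, and grey circles the 28 that did not pass.

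Markers of cell types that are known to carry prostaglandin enzymes, and of tissues that could be taken along with liver, were read from lists of 5 to 8 genes. Mast cells and basophils, known for Hpgds, had the defining markers Cpa3 and Fcer1a at 0 in all 4 libraries, and their 7 markers summed to 0.580 and 0.676 FPKM in the KO pools and to 0.857 and 1.00 FPKM in the WT pools. The sum was mostly Kit. Exocrine pancreas had Cpa1, Pnlip, Try4 and Ctrb1 at 0, and its sum, led by Cela1, was 2.53 and 2.40 FPKM in KO and 2.02 and 2.71 FPKM in WT.

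Mesothelial, stellate and endothelial cells were read beside Ptgds. The 7 mesothelial markers, led by Msln and sharing Krt19 with the cholangiocyte list, summed to 1.07 and 0.592 FPKM in the KO pools and to 1.33 and 1.36 FPKM in the WT pools. The 8 markers of stellate cells and fibroblasts, led by Dcn, summed to 45.8 and 40.4 FPKM in KO and to 43.5 and 48.9 FPKM in WT. Dcn made up most of that sum in every library. Pdgfrb, Des and Reln were lower in both KO pools and Lrat was higher in both, while Dcn, Lum, Col1a1 and Col1a2 overlapped. The markers of sinusoidal endothelium, led by Lyve1, summed to 50.8 and 51.2 FPKM in KO and to 67.4 and 65.6 FPKM in WT. Of the endothelial markers, Lyve1, Pecam1 and Stab2 were lower in both KO pools, while Clec4g, Kdr, Fcgr2b and Oit3 overlapped between the groups. The part of mesothelial, stellate and endothelial cells in the level of Ptgds was not tested. The 6 adipocyte markers summed to 63.8 and 73.2 FPKM in KO and to 98.7 and 134 FPKM in WT, of which nearly all was Cidec, a lipid droplet gene that fatty hepatocytes also express. The 5 vascular smooth muscle markers, led by Mylk, summed to 7.40 and 7.80 FPKM in KO and to 12.0 and 7.14 FPKM in WT. Mylk made up most of that sum and overlapped between the groups. Acta2, Tagln and Myh11 were lower in both KO pools, and Cnn1 was higher in both.

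The summed levels of neutrophil, platelet and cholangiocyte markers were lower in both KO pools. So were those of mast cells and basophils, mesothelium, sinusoidal endothelium and adipocytes. The 8 neutrophil markers summed to 38.4 and 33.8 FPKM in the KO pools, against 117 and 178 FPKM in the WT pools, and 3 of 7 tested ones fell in limma at an adjusted p under 0.05, where 3.14% of all tested genes did. That count was 0 without KO pool 1 or WT pool 2, 1 without KO pool 2 and 2 without WT pool 1, with all 7 at an unadjusted p under 0.05 each time. Mmp8, Mmp9 and Cxcr2 met the mean of 1 FPKM only through their WT values, so they had to be lower in KO to be tested. Mmp9 was among the 3 that fell. Ly6g, too low for the test, overlapped between the groups at 0.0596 and 0.124 FPKM in KO and 0 and 0.338 FPKM in WT. The neutrophil sum, led by S100a9, was lower in KO alongside Alox5ap, the partner protein of 5-lipoxygenase. Alox5ap was at 1.22 and 1.93 FPKM in KO and 3.25 and 3.36 FPKM in WT (limma adjusted p = 0.0858, singled out after its values were seen). The 6 platelet markers, led by Pf4, summed to 2.46 and 2.54 FPKM in KO and to 6.01 and 4.79 FPKM in WT. Both tested ones, Pf4 and Itga2b, met the mean of 1 FPKM only through their WT values, so they had to be lower in KO to be tested. Pf4 was the 1 of 2 tested ones that fell, a call lost when any 1 of the 4 pools was left out, while the low markers Gp9 and Gp1bb were higher in both KO pools. The 6 cholangiocyte markers, led by Spp1, summed to 38.8 and 17.5 FPKM in KO and to 263 and 102 FPKM in WT. Spp1 and Sox9 made up nearly all of that sum, and Epcam, Krt19 and Cftr overlapped between the groups. Sox9 was the 1 of 3 tested ones that fell, a call kept when KO pool 2 was left out and lost when any other pool was. The 6 hepatocyte markers, led by Alb, summed to 39299 and 29830 FPKM in KO and to 35036 and 42405 FPKM in WT, and the groups overlapped. The part of these cells in the levels of the prostaglandin and leukotriene genes was not tested.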

How the data were processed

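Poly(A)-selected liver RNA was sequenced, 1 library per pool. The deposited table gives FPKM made by the authors for 54149 genes, 348 of them unannotated models, beside each gene's length, type and position, per the file headers. The submitters' processing notes name HISAT2 2.0.5 and the build mm10 (GRCm38.p6). How reads were counted, whether strand was used and which annotation release was taken are not stated in the sources used here. Each column's name gave its genotype and number, and all sample columns were used (0 left out).

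The test was limma 3.58.1 (R 4.3.3; lmFit, then eBayes with its trend option) on log2(FPKM + 0.5), KO against WT, over the 11900 genes averaging 1 FPKM or more. It had 2 residual and 2.59 prior degrees of freedom. Two-sided p-values were adjusted over all 11900 genes by the Benjamini-Hochberg method, and 0.05 was the threshold. Fold changes on this scale understate the change of low genes. FPKM times gene length gave whole reads for 100% of values above 0, within 0.01 read, and voom with trimmed-mean scaling was run on them: it called 1084 genes, against 564. The script was tested on simulated data. The fit was repeated under 13 alternatives: other pseudocounts, filters, scalings and tests, a replicate block, and leaving out each pool. Among them, the median-of-ratios scaling had a factor of 1.003 for every library, so it nearly repeats the main fit.

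The members and all gene lists were chosen with earlier results of these data known. Besides the members and Kdm6a, genes are named where they passed the threshold in a pathway list, had 1 of the 2 highest means there, led a marker list, began within 100 kb of Ptgds with a mean of at least 0.1 FPKM, or were among the 5 and 3 tested coding genes nearest in profile to Ptgds and Ptgs2. Promoters are from RefSeq.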

Additional observations from a re-analysis of the deposited data

How the results depend on the processing

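Each library pools 2 mice and each group has 2 libraries, so single calls are fragile. In all, 564 genes were called (190 higher and 374 lower in KO). The count was 0 of 26643 with no filter on low values (4388 at an unadjusted p under 0.05 in limma), 280 without the trend and 1084 with voom. Leaving out a pool gave 0 (without WT pool 2, where 2665 had an unadjusted p under 0.05) to 253 (without KO pool 2). With the reads recovered for each library as its total, in place of the total behind the FPKM, 466 were called, 211 higher and 255 lower. Of the other eicosanoid genes 4 were called, against 0 with no filter (14 unadjusted), 2 without the trend, 7 with voom, and 0 to 3 without a pool. The replicate block called 310 genes and 2 eicosanoid genes; no label says what a shared number means, and same-numbered deviations correlated at -0.14 over 11900 genes. It called 2 prostaglandin genes, without Ptgr2. Ptgds ranged from 3.07 to 4.60, and the sign of a prostaglandin gene turned once, Ptgs1 being at 0.02 without KO pool 1. Of 325 for 26 other genes, 280 kept sign and side, 32 lost the call and 8 gained it. The 5 others turned in sign without 1 pool: Cyp4a14 ran from -0.079 to 0.76, C8g from -0.17 to 0.24 and Traf2 from -0.057 to 0.11, with -0.16 for C8g without WT pool 1 and -0.00093 for Traf2 without KO pool 1. The cause was not tested. Depth limits Ptgs2 and Ptges, with 22 and 40 reads in all.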

Other observations

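Among leukotriene genes too low for the test, 7 were lower and 1 was higher in both KO pools than in both WT pools. The rest overlapped or were at 0 in all libraries. The higher one was Cysltr2, a cysteinyl leukotriene receptor, at 0.0977 and 0.223 FPKM in KO and at 0.0618 and 0.0664 FPKM in WT. Alox5, the 5-lipoxygenase of leukotriene synthesis, was at 0.0273 and 0.0710 FPKM in the KO pools, from 2 and 5 reads, against 0.259 and 0.263 FPKM in the WT pools, from 18 and 17 reads. Alox12, the platelet-type 12-lipoxygenase, was at 0.302 and 0.300 FPKM in KO and at 0.550 and 0.529 FPKM in WT. Ltb4r1, a leukotriene B4 receptor, was at 0.523 and 0.753 FPKM in KO and at 1.49 and 1.00 FPKM in WT. These 4 genes were singled out after their values were seen, and groups that do not overlap were seen for 45.3% of detected genes, in either direction. That share takes in the tested genes, at 61.5%, so it is lower among genes too low for the test. Ptgr1, whose product inactivates leukotriene B4, was higher in both KO pools. Abcc4, an exporter of prostaglandins and other anions, was at 13.1 and 9.56 FPKM in KO and at 5.80 and 3.28 FPKM in WT (limma adjusted p = 0.0858), and was likewise singled out after its values were seen.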
